A study of Sus scrofa with 16 samples.

Results

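Chemokines are small secreted or membrane-bound proteins that guide leucocytes into and within tissues by binding G protein-coupled receptors. The genes described here are the ligands CCL2, CCL5, CCL8, CXCL12 and CX3CL1 and the receptors CCR1, CCR2, CXCR4 and CX3CR1, which hold 3 textbook pairs, CCL2 with CCR2, CXCL12 with CXCR4 and CX3CL1 with CX3CR1, while CCR1 is a receptor of CCL5. They were taken by symbol from tables of estimated counts and of TPM (transcript abundance scaled for transcript length and library depth). Of the 9 genes, 8 had a line among the 22629 genes of the tables, and CCL8, a further monocyte attractant, is not analysed here.

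In an injured heart, CCL2 and CCR2 are known for recruiting monocytes from blood, and CCR1 for responding to several inflammatory CC ligands on monocytes and neutrophils. CXCL12, made largely by stromal and vascular cells, retains and attracts CXCR4-bearing progenitors and leucocytes. CX3CL1 is anchored on endothelium and binds CX3CR1 on patrolling monocytes, resident macrophages and cytotoxic lymphocytes.

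Left ventricular myocardium came from 8 White Yorkshire-Landrace pigs operated on at 1 month of age and killed 4 weeks later. In 4 pigs (IR, ischemia/reperfusion) the left anterior descending artery was snared for 1 h and then released, and 4 sham pigs had the surgery with no occlusion. Each group held 2 females and 2 males, pigs 2, 14 (female), 9 and 11 (male) with IR and pigs 4, 5 (female), 12 and 13 (male) with sham, and each pig gave a scar zone library and another from the adjoining border zone. The scar zone lay just below the suture in both groups, held viable myocardium as well as scar in IR pigs, and held no infarct in sham pigs. In a piece of tissue, more cells of a type and more RNA per cell cannot be told apart.

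Estimated counts of a library added up to at least 15427663 and at most 49045206 (median 21822696), and the deepest were the 4 libraries of the male IR pigs, at 33521418 and more. A gene with 3 counts stood at 0.0693 to 0.204 CPM (counts scaled to the TMM-adjusted library total) at these depths, which covers counting error only, and no library of the 8 genes fell below 22 counts. The 6 cardiomyocyte markers were present in every library, at a summed 29983 to 40491 TPM. The scar library of female pig 14 held the Y-linked transcript DDX3Y at 4.49 CPM, where the remaining 7 libraries of females reached 1.23 CPM and the 8 of males began at 68.4 CPM. Without pig 14, the scar zone log2 fold changes of IR over sham were 1.73 for CCL2, 0.09 for CCL5, 0.39 for CXCL12, 0.0041 for CX3CL1, 1.40 for CCR1, 0.20 for CCR2, -0.31 for CXCR4 and 0.25 for CX3CR1 (edgeR), each with the sign it has with all 4 IR pigs.

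At 4 weeks after the operation, CCL2 and CCR1 had the largest differences between IR and sham scar zone among the 8 genes, 2.72-fold and 2.23-fold higher, and both were carried by the male IR pigs 9 and 11. The other 6 genes differed by 0.901-fold to 1.27-fold in the scar zone and by 0.727-fold to 1.32-fold in the border zone. At an adjusted p of at most 0.05 with a fold of at least 2, edgeR's quasi-likelihood test with Benjamini-Hochberg adjustment called 0 of the 8 genes in either zone. The background was 0% of 14023 genes tested for scar and 0% of 13728 for border samples. With the same fold at the unadjusted p, CCL2 was the 1 member higher in the scar zone, where 2.74% of all genes were called higher and 0.613% lower. No member passed that rule in the border zone, where 0.517% were called higher and 0.277% lower. DESeq2 called 0 members at the adjusted p and 2-fold, against 0.371% of all genes in the scar and 0.0146% in the border zone, and limma on log2(TPM + 1) called 0, against 0.0246% and 0%.

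**Figure D1:**
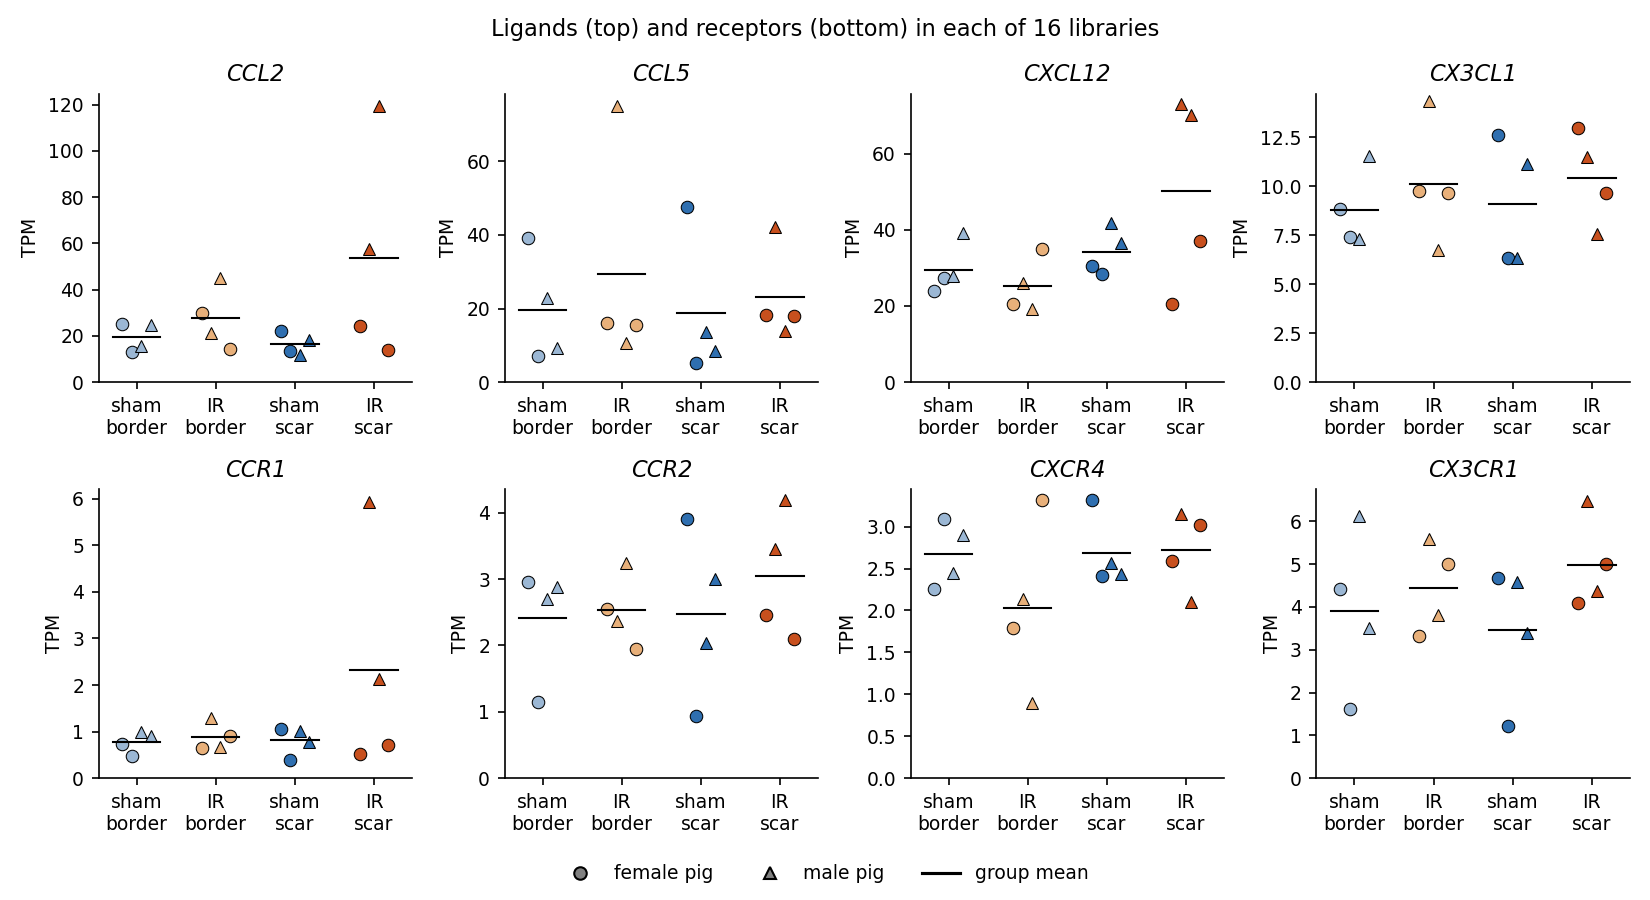
Level of each gene in TPM (linear axis from 0) in the 16 libraries, by group, with circles for female and triangles for male pigs and a bar at the mean of 4 pigs. The 2 male IR pigs stand above the other scar zone libraries for CCL2, CXCL12 and CCR1.

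Among the ligands, CCL2 stood at 24.2 and 13.9 TPM in the scar zone of the female IR pigs 2 and 14, and at 57.4 and 119 TPM in the males 9 and 11. The sham scar zone held 22.1, 13.5, 11.8 and 18.2 TPM in pigs 4, 5, 12 and 13. So 3 of 4 IR pigs lay above every sham pig and pig 14 lay inside the sham range. The log2 fold change was 1.45 ± 0.53 (SE, n = 4 pigs a group; edgeR unadjusted p = 0.0225, adjusted p = 0.438), with a 95% interval of 0.25 to 2.64. An exact two-sided permutation test over pigs gave p = 0.143, where 4 pigs against 4 allow no less than 0.0286. Without pig 11 the log2 fold change was 0.63 (edgeR, unadjusted p = 0.0853, adjusted p = 0.840), and the unadjusted call was also lost without sham pig 5 (unadjusted p = 0.0531) or sham pig 12 (unadjusted p = 0.0600). Without pig 14 the edgeR value was 1.73 (adjusted p = 0.170).

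In the border zone CCL2 stood at 29.99, 14.5, 21.3 and 45.0 TPM in IR pigs 2, 14, 9 and 11, against 25.4, 13.1, 15.5 and 24.8 TPM in sham pigs 4, 5, 12 and 13. The ranges overlapped, and pig 11 was the highest in this zone too. The log2 fold change was 0.45 ± 0.38 (SE, n = 4 pigs a group; edgeR adjusted p = 0.988), and 0.03 without pig 11.

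CCL5, a T cell and macrophage attractant made largely by activated T and NK cells, stood at 18.3, 18.0, 42.1 and 13.9 TPM in the scar zone of IR pigs 2, 14, 9 and 11. The 4 sham pigs held 47.5, 5.10, 13.5 and 8.58 TPM, so the highest scar zone value was that of sham pig 4. The border zone gave 16.0, 15.6, 74.9 and 10.5 TPM in the same IR pigs, and 39.2, 7.20, 23.0 and 9.31 TPM in the sham pigs. In both zones the same 2 animals, IR pig 9 and sham pig 4, led their groups, and IR and sham ranges overlapped. Log2 fold changes were 0.08 ± 0.58 in the scar and 0.40 ± 0.66 in the border zone (SE, n = 4 pigs a group; edgeR adjusted p = 0.958 and 0.990). With 1 pig left out, the scar zone value was negative without pig 5, 9, 12 or 13, down to -0.22, and was 1.04 without sham pig 4 (edgeR unadjusted p = 0.0177, adjusted p = 0.606). The border zone value was -0.55 without IR pig 9.

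CXCL12 was the most abundant of the 8 genes in sham pigs, at a mean of 34.3 ± 6.06 TPM in the scar and 29.5 ± 6.65 TPM in the border zone (SD, n = 4). In the IR scar zone it stood at 20.4 and 37.1 TPM in female pigs 2 and 14 and at 73.1 and 70.1 TPM in male pigs 9 and 11. Sham scar zones held 30.5, 28.4, 41.7 and 36.5 TPM, so the 2 males lay above and pig 2 below every sham pig. In the border zone IR pigs held 20.5, 35.1, 26.1 and 19.3 TPM and sham pigs 23.9, 27.3, 27.7 and 39.2 TPM. IR minus sham was 0.33 ± 0.30 in log2 for the scar and -0.25 ± 0.19 in the border zone (SE, n = 4 pigs a group; edgeR adjusted p = 0.641 and 0.988).

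CX3CL1 varied least, with a 2.26-fold span from 6.35 to 14.3 TPM over all 16 libraries. The IR scar zone held 12.99, 9.64, 11.5 and 7.58 TPM in pigs 2, 14, 9 and 11, and the sham scar zone 12.6, 6.36, 6.35 and 11.2 TPM. Border zone values were 9.76, 9.63, 14.3 and 6.73 TPM in IR and 8.86, 7.40, 7.31 and 11.6 TPM in sham pigs. The groups overlapped in both zones. Log2 fold changes were 0.05 with a 95% interval of -0.56 to 0.66 in the scar and 0.14 with an interval of -0.31 to 0.59 in the border zone (edgeR adjusted p = 0.946 and 0.988).

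Among the receptors, CCR1 had the lowest level and the widest span, 15.1-fold. In the IR scar zone it stood at 0.519 and 0.707 TPM in female pigs 2 and 14 and at 5.92 and 2.13 TPM in male pigs 9 and 11, where the estimated counts were 22, 27, 418 and 155. The sham scar zone held 1.06, 0.394, 1.02 and 0.781 TPM. The 2 males thus lay above every sham pig while the 2 females lay within the sham range. The log2 fold change was 1.15 ± 0.59 (SE, n = 4 pigs a group; edgeR unadjusted p = 0.0811, adjusted p = 0.480), and the exact permutation p was 0.40. Without pig 9 it was 0.38, and it passed the unadjusted rule without pig 2 (1.45) or pig 14 (1.40). Border zone values were 0.657, 0.897, 1.28 and 0.673 TPM in IR and 0.744, 0.468, 0.984 and 0.911 TPM in sham pigs, with a log2 fold change of 0.13 ± 0.30 (SE; edgeR adjusted p = 0.993).

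For CCR2, the receptor of CCL2, the IR scar zone held 2.46, 2.10, 3.45 and 4.19 TPM in pigs 2, 14, 9 and 11, and the sham scar zone 3.91, 0.937, 2.04 and 2.99 TPM. Sham pig 5 was the lowest in both zones, and only pig 11 exceeded every sham scar zone. In the border zone IR pigs held 2.55, 1.95, 2.37 and 3.24 TPM and sham pigs 2.95, 1.15, 2.69 and 2.88 TPM. Log2 fold changes were 0.13 with a 95% interval of -0.68 to 0.93 in the scar and 0.04 with an interval of -0.63 to 0.72 in the border zone (edgeR adjusted p = 0.891 and 0.995). The estimated count of CCR2 was not a whole number in 16 of 16 libraries, to a tolerance of 0.01. The counts of CCL2, CCL5, CXCL12, CCR1 and CX3CR1 were whole in every library, and those of CX3CL1 and CXCR4 were not whole in 2 and 3 libraries. As counts were summed per gene, a total that is not whole can hold reads shared with transcripts outside that gene, so the level of CCR2 is less certain.

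CXCR4, the receptor of CXCL12, stood at 2.59, 3.02, 3.14 and 2.11 TPM in the scar zone of IR pigs 2, 14, 9 and 11 and at 3.32, 2.41, 2.56 and 2.44 TPM in that of sham pigs 4, 5, 12 and 13. The order differed in CPM, where pigs 9 and 11 stood at 9.68 and 8.56, below the sham range of 11.5 to 14.1. Pigs 2 and 14 stood at 11.8 and 14.7 CPM. The border zone held 1.79, 3.32, 2.14 and 0.891 TPM in IR and 2.26, 3.09, 2.45 and 2.90 TPM in sham pigs. In that zone 3 IR pigs lay below every sham pig and pig 14 above them. The log2 fold change was -0.15 ± 0.19 in the scar and -0.46 ± 0.30 in the border zone (SE, n = 4 pigs a group; edgeR adjusted p = 0.743 and 0.988). On the TPM scale, where the median gene of the scar zone was 0.15 higher in log2 in IR pigs, the scar zone difference of CXCR4 was 0.01 (limma on log2(TPM + 1), adjusted p = 0.983), a change of sign.

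CX3CR1 stood at 4.10, 5.0, 6.48 and 4.38 TPM in the IR scar zone and at 4.67, 1.21, 4.57 and 3.38 TPM in the sham scar zone. Border zone levels were 3.31, 5.0, 5.58 and 3.82 TPM in IR and 4.42, 1.61, 6.12 and 3.50 TPM in sham pigs. As with CCR2, the low end was sham pig 5 in both zones, and the groups overlapped. The log2 fold change was 0.35 ± 0.33 in the scar and 0.14 ± 0.33 in the border zone (SE, n = 4 pigs a group; edgeR adjusted p = 0.659 and 0.993). Over the 8 genes, IR and sham values overlapped in every case, so 0 of 8 were separated in either zone, where 4.86% of all genes were separated in the scar and 2.03% in the border zone.

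**Figure D2:**
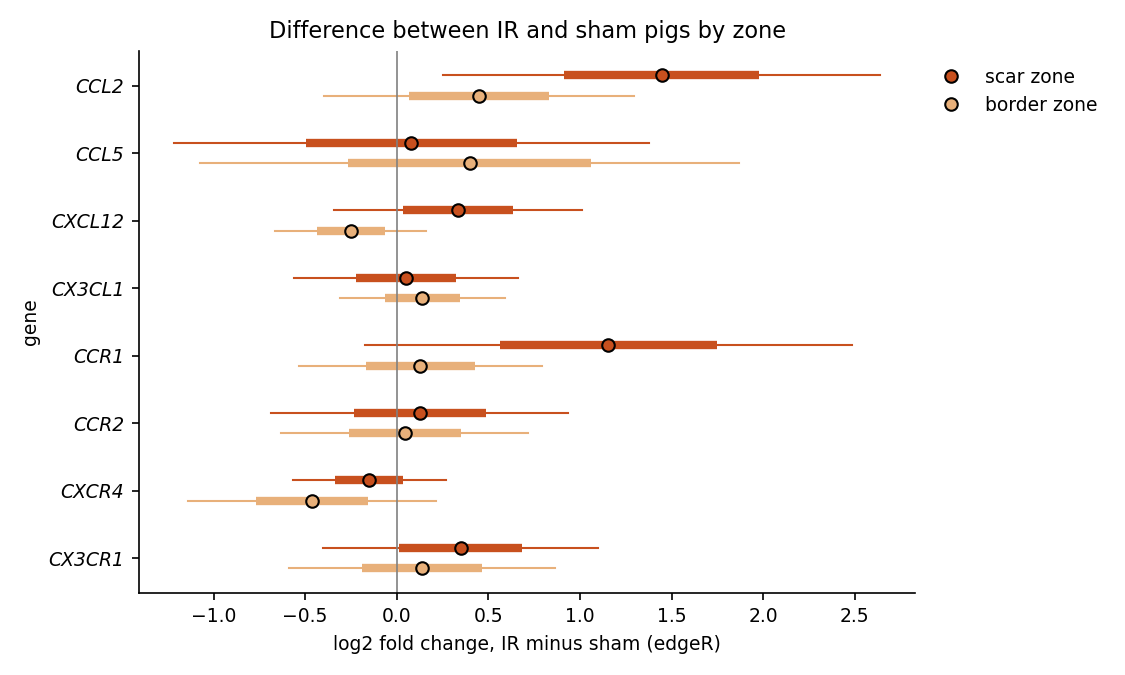
Log2 fold change of IR over sham for each gene (x axis) in the scar and border zone, from edgeR on 4 pigs a group, with thick bars for 1 SE and thin bars for the 95% interval. The interval of CCL2 in the scar zone, 0.25 to 2.64, is the 1 that lies wholly to one side of 0.

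Levels between genes were compared in TPM, which is per transcript length. In the IR scar zone the order by mean TPM was CCL2 (53.8), CXCL12 (50.2), CCL5 (23.0), CX3CL1 (10.4), CX3CR1 (4.99), CCR2 (3.05), CXCR4 (2.72) and CCR1 (2.32). In the sham scar zone CXCL12 (34.3) led, followed by CCL5 (18.7), CCL2 (16.4), CX3CL1 (9.12), CX3CR1 (3.46), CXCR4 (2.68), CCR2 (2.47) and CCR1 (0.815). The border zone began with CCL5 (29.3), CCL2 (27.7) and CXCL12 (25.2) in IR and with CXCL12 (29.5), CCL2 (19.7) and CCL5 (19.7) in sham pigs, and ended with CCR1 in both. CX3CL1 was above CX3CR1 in all 4 pigs of every group with no overlap of ranges. CCL2, CCL5 and CXCL12 overlapped with one another as neighbours in the order, and so did CCR2 with CXCR4 in all 4 groups. The position of CCL2 at the top of the IR scar zone rested on 2 of 4 pigs in which it exceeded CXCL12.

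The 2 zones were also compared with each other in IR pigs. In IR pigs the scar exceeded the border zone in CXCL12 by 1.05 and 1.65 (log2 CPM) in male pigs 9 and 11, by 0.19 in female pig 14 and by -0.12 in female pig 2. Its log2 fold change was 0.79 ± 0.32 (SE; edgeR unadjusted p = 0.0343, adjusted p = 0.989), and it was the 1 member past the unadjusted p at any fold, where 3.55% of all genes were higher. That fit leaves out which libraries share a pig. With the pig as a replicate block the value was 0.71 ± 0.29 (SE; edgeR unadjusted p = 0.0468, adjusted p = 0.431), against a background of 6.49% higher. An exact sign-flip permutation test over the 4 pigs gave p = 0.250, with 0.125 the least that 4 pigs allow. The unadjusted call was lost without pig 9 (0.70) or pig 11 (0.45), and without pig 14 the value was 1.00. CCR1 was higher in the scar zone by 1.73 and 1.33 in pigs 9 and 11 and lower by 0.31 and 0.22 in pigs 2 and 14, against differences of -0.17 to 0.25 in sham pigs. For CCL2 the differences were 1.00 and 1.11 in pigs 9 and 11, -0.29 and 0.04 in pigs 2 and 14, and -0.49 to 0.10 in sham pigs. CCL5 went the other way in pig 9, at -1.26.

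With the fold of at least 2, 0 of 8 genes passed within IR pigs at the adjusted p (background 0% of 14170) or the unadjusted p (background 1.76%). Within sham pigs 0 passed at either p, with backgrounds of 0% and 0.101% of 13803 genes. The test of whether the IR difference itself depended on the zone gave log2 values of 1.01 ± 0.71 for CCL2, 1.03 ± 0.70 for CCR1 and 0.59 ± 0.38 for CXCL12 (SE, 16 libraries of 8 pigs, fitted without the pairing; edgeR adjusted p = 1.00 for each), and 1.07, 1.27 and 0.80 without pig 14. Exact permutation tests of the zone differences over pigs gave p = 0.143, 0.429 and 0.314. For that test 0 of 8 genes passed the adjusted rule (background 0% of 14278) or the unadjusted one (1.37%), and 0 of 8 had zone differences separated between IR and sham pigs (4%). With the pig as a replicate block, the zone dependence of CCL2 was 0.79 ± 0.31 (SE; edgeR unadjusted p = 0.0282, adjusted p = 0.702), still under the 2-fold limit, that of CCR1 was 0.77 ± 0.48 and that of CXCL12 was 0.52 ± 0.34 (edgeR adjusted p = 0.721 and 0.731).

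**Figure D3:**
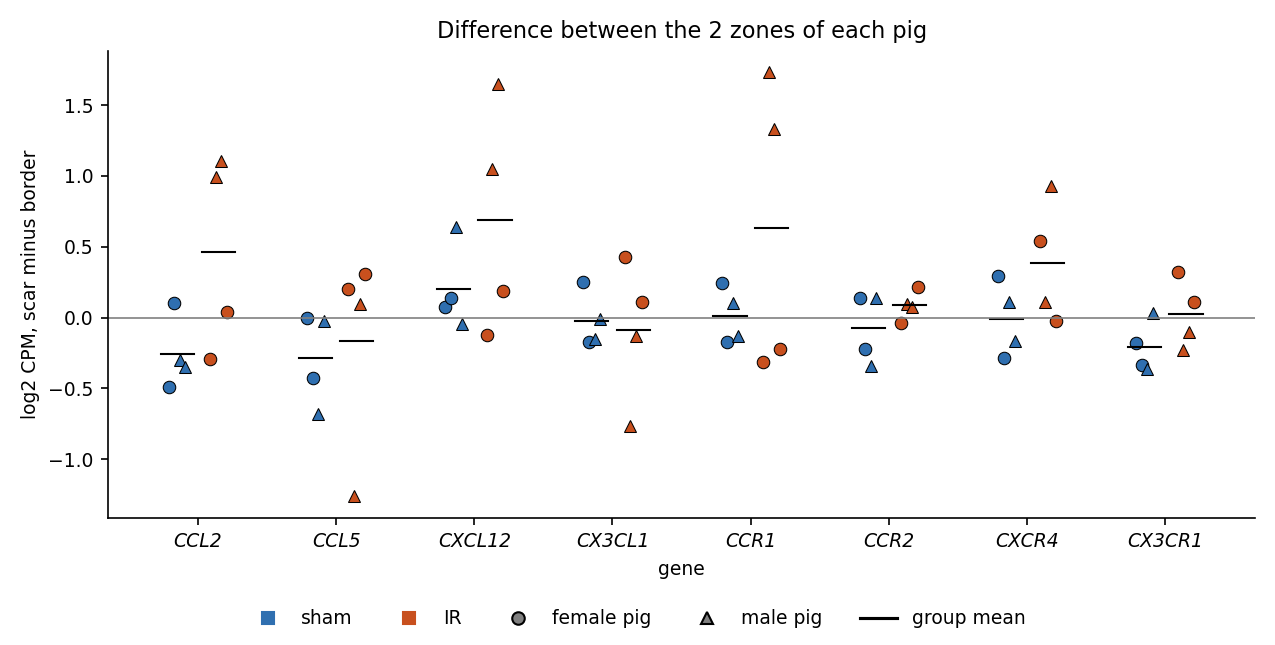
Scar minus border zone difference in log2 CPM (y axis) within each pig, with circles for females, triangles for males and a bar at the mean of 4 pigs. Male IR pigs 9 and 11 have differences of at least 0.995 for CCL2, CXCL12 and CCR1.

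Both sexes were in the design, with 2 pigs per surgery and sex. In the scar zone the mean of CCL2 was 35.7 CPM in male IR against 7.67 CPM in male sham pigs, and 9.68 against 8.98 CPM in females. CCR1 averaged 7.19 against 2.24 CPM in males and 1.55 against 1.74 CPM in females. The IR difference was larger in males by 2.11 ± 0.69 in log2 for CCL2 (SE; edgeR unadjusted p = 0.0150, adjusted p = 0.161) and by 1.87 ± 0.72 for CCR1 (unadjusted p = 0.0320, adjusted p = 0.217). They were the 2 members higher at the unadjusted p, where 6.08% of all genes were higher and 2.95% lower. With edgeR 0 of 8 passed the adjusted rule, which 1.5% of all genes passed. CCL2 did pass it with DESeq2 (2.11, adjusted p = 0.0165), which called 5.07% of all genes, and with limma on log2(TPM + 1) (2.34, adjusted p = 0.0437), which called 3.56%. With 1 pig left out, both differences stayed positive in the scar zone, from 1.21 (without pig 11) to 2.68 for CCL2 and from 1.12 (without pig 4) to 2.36 for CCR1. The unadjusted call was lost for CCL2 without pig 11, 12 or 14, and for CCR1 without pig 2, 4, 9, 12 or 13. In the border zone the same test gave 0.79 ± 0.78 for CCL2 and -0.17 ± 0.60 for CCR1, and 0 of 8 genes passed the adjusted rule (0.0146% of all genes) or the unadjusted one (4.12%). Each of these values rests on 2 pigs per surgery and sex.

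Markers of other cell types differed between the same animals. Their sums are given in TPM, which is not TMM-scaled. CCL2, for one, stood at 57.4 TPM and 19.0 CPM in the scar zone of pig 9, against 22.1 TPM and 10.5 CPM in sham pig 4. A small gap between libraries in TPM may thus close in CPM. In the scar zone of male IR pigs 9 and 11 the 9 monocyte and macrophage markers (CD14, CD68, CSF1R and others) summed to 326 and 349 TPM, against 114 and 117 TPM in female IR pigs 2 and 14 and 85.2 to 172 TPM in sham pigs. The 7 fibroblast and matrix markers (such as COL1A1 and POSTN) summed to 9758 and 9976 TPM in pigs 9 and 11, to 1717 and 1349 TPM in pigs 2 and 14 and to 1714 to 2359 TPM in sham pigs. The 8 T and NK cell markers summed to 47.8 and 38.3 TPM in pigs 9 and 11, 18.8 and 20.7 TPM in pigs 2 and 14 and 5.91 to 35.2 TPM in sham pigs. The 4 neutrophil markers (S100A8, S100A9, S100A12 and CSF3R) summed to 3.58 and 11.8 TPM in pigs 9 and 11, 1.91 and 1.57 TPM in pigs 2 and 14 and 0.739 to 1.81 TPM in sham pigs. In 3 further lists pigs 9 and 11 also lay above the other 6 scar zones in summed TPM. The 4 general leucocyte markers summed to 182 and 104 TPM, against at most 103 TPM, the 4 lymphatic endothelial markers to 53.3 and 56.6 TPM, against at most 45.8 TPM, and the mast cell markers to 14.1 and 13.1 TPM, against at most 12.4 TPM. With TMM scaling, the median log2 fold change of IR over sham scar zones (edgeR) was 0.45 for leucocyte markers (4 of 4 positive). It was 0.34 for T and NK (7 of 8), -0.02 for lymphatic endothelial (2 of 4) and 0.0012 for mast cell markers (1 of 2). No marker of these 7 lists was at 0 in all libraries of a group. Their part in the CCL2, CCR1 and CXCL12 differences was not tested.

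**Figure D4:**
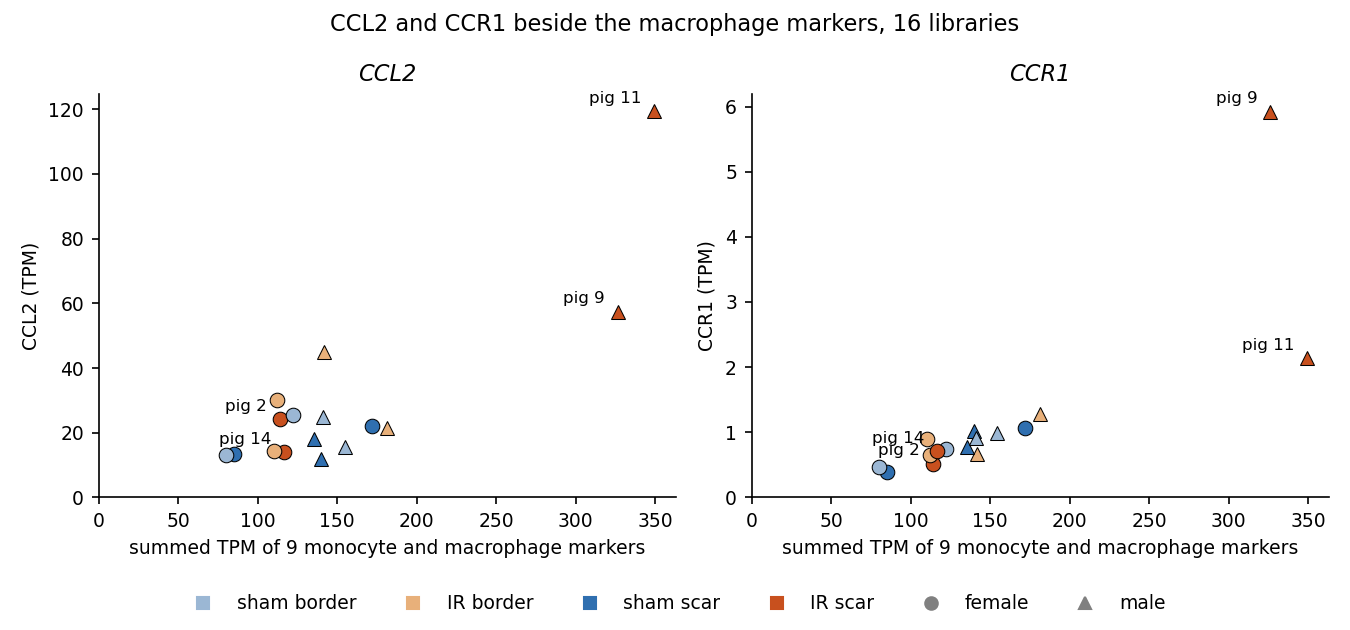
CCL2 (left) and CCR1 (right) in TPM against the summed TPM of 9 monocyte and macrophage markers in 16 libraries, coloured by group, with circles for females and triangles for males. The IR scar zones of pigs 9 and 11, at 326 and 349 TPM of markers, stand apart from the other 14 libraries.

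The genes whose log2 CPM ran most like each member over the 16 libraries of 8 pigs were taken among 10431 genes listed by symbol, as a description, since the 2 libraries of a pig share the animal. For CCL2 they were FKBP11 (Pearson r = 0.95, Spearman rho = 0.90), IFI30 (0.94, 0.85) and PPIB (0.93, 0.86). For CCR1 they were RUNX1 (0.93, 0.71), CD68 (0.92, 0.84) and CYBRD1 (0.91, 0.74), in which 2 libraries lay far above the rest. CCL5 ran most like PVRIG (0.92, 0.93), TBX21 (0.91, 0.89) and LCK (0.90, 0.96), and CX3CR1 like CD3G (0.94, 0.78), GZMA (0.93, 0.89) and CXCL9 (0.93, 0.81). CCR2 ran most like LY86 (0.88, 0.89), LYL1 (0.86, 0.80) and BST2 (0.85, 0.76). For CXCL12 the nearest were MDFIC (0.89, 0.89), EPS8 (0.88, 0.78) and TCF12 (0.88, 0.82), for CXCR4 VEGFC (0.90, 0.90), SLC16A14 (0.89, 0.71) and RFX2 (0.87, 0.73), and for CX3CL1 GCHFR (0.84, 0.82), WIPF2 (0.80, 0.77) and FBLIM1 (0.79, 0.76).

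The rest of the chemokine system was followed in a list of 75 genes, of which 59 had a line and 43 were tested in the scar zone. There 34 of 43 had a positive log2 fold change, with a median of 0.45, against 53.9% positive and a median of 0.03 over all genes tested. At the unadjusted p with a fold of at least 2, 9 were higher and 0 lower (edgeR), against the background of 2.74% and 0.613% given above, and 0 passed the adjusted rule. Of the CC ligands, the eosinophil attractant CCL11 (log2 fold change 2.24) and CCL19 (1.24), a ligand of CCR7, were among the 9. The CXC ligands were CXCL2 (1.60), a neutrophil attractant, and the interferon-induced CXCL10 (2.09) and CXCL11 (1.45), with their receptor CXCR3 (2.01). The study named these last 3 from the same samples, so they are no independent evidence. It named CXCL9 with them, which missed the rule here (1.25, edgeR unadjusted p = 0.105). The remaining genes were ACKR1 (2.13), a chemokine-binding receptor of venules and red cells, RGS1 (1.84), which limits chemokine receptor signalling, and the protease MMP9 (3.84).

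With each of the 8 pigs left out in turn, RGS1 was called in 8 of 8 fits and each of the other 8 genes lost its call in at least 1. CXCL2 was led by pig 11, at 30.8 CPM against 4.16 to 5.36 CPM in the other IR scar zones. Without pig 11 the log2 fold changes were 0.36 for CXCL2, 0.83 for CXCL10, 0.71 for CCL19, 1.12 for CCL11 and 1.27 for ACKR1, and these 5 calls were lost. CXCR3 was highest in pig 14 (13.9 CPM), and its call was lost without that pig (1.39) or sham pig 4 (1.83). CXCL11 stayed past 2-fold with 1 pig left out (at least 1.09) but lost the call without pig 9, 11, 13 or 14.

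IR and sham ranges were separated for 2 of the 43 genes (4.65%), RGS1 and CCR10, a share near the 4.86% of all genes. RGS1 stood at 4.56, 6.88, 12.1 and 16.7 CPM in IR pigs 2, 14, 9 and 11 against 2.11 to 3.66 CPM in sham scar zones (edgeR adjusted p = 0.438, DESeq2 adjusted p = 0.0028). MMP9 rested on pig 9 alone, at 22.7 CPM against at most 0.690 CPM in the other scar zones, and its log2 fold change without pig 9 was -0.62. CCL11, like CCL2, was led by pig 11 (17.2 CPM) and pig 9 (5.97 CPM), against 1.33 and 1.498 CPM in the IR females and 0.475 to 2.02 CPM in sham pigs. The abundant homeostatic ligands CCL14 and CCL21 averaged 16.3 and 43.2 CPM in the IR and 15.4 and 42.6 CPM in the sham scar zone. CCL21 stood at 57.4 and 72.1 CPM in IR males 9 and 11 and at 18.5 and 24.5 CPM in IR females 2 and 14, against 24.7 to 58.2 CPM in sham pigs. ACKR3, a second receptor of CXCL12 that scavenges it, differed by -0.12 ± 0.22 (log2, SE; edgeR adjusted p = 0.816), and by 0.03 with limma on log2(TPM + 1). CCR10, chosen after its values were seen, was lower in CPM in 4 of 4 IR scar zones than in every sham one (mean 2.49 against 4.297 CPM; log2 fold change -0.79, edgeR adjusted p = 0.438), short of 2-fold. On the TPM scale its ranges overlapped, with IR pig 9 at 1.28 TPM and sham pig 13 at 1.14 TPM, and limma on log2(TPM + 1) gave -0.32 (adjusted p = 0.605). Without pig 14 the edgeR values were 1.98 for RGS1, 2.56 for CCL11, 2.37 for CXCL10 and -0.69 for CCR10.

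In the border zone 23 of 42 genes tested were positive, against 50.0% of all genes, with a median of 0.01. There CXCL10 (2.28) and ACKR4 (1.19), a scavenger of CCL19 and CCL21, were the 2 genes higher at the unadjusted p with a fold of at least 2, with 0 lower, against 0.517% and 0.277% of all genes. CXCL10 stood at 346 CPM in pig 11 and at 17.3 to 69.7 CPM in the other IR pigs. Without pig 11 the values were 0.71 for CXCL10 and 0.91 for ACKR4, and both calls were lost.

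**Figure D5:**
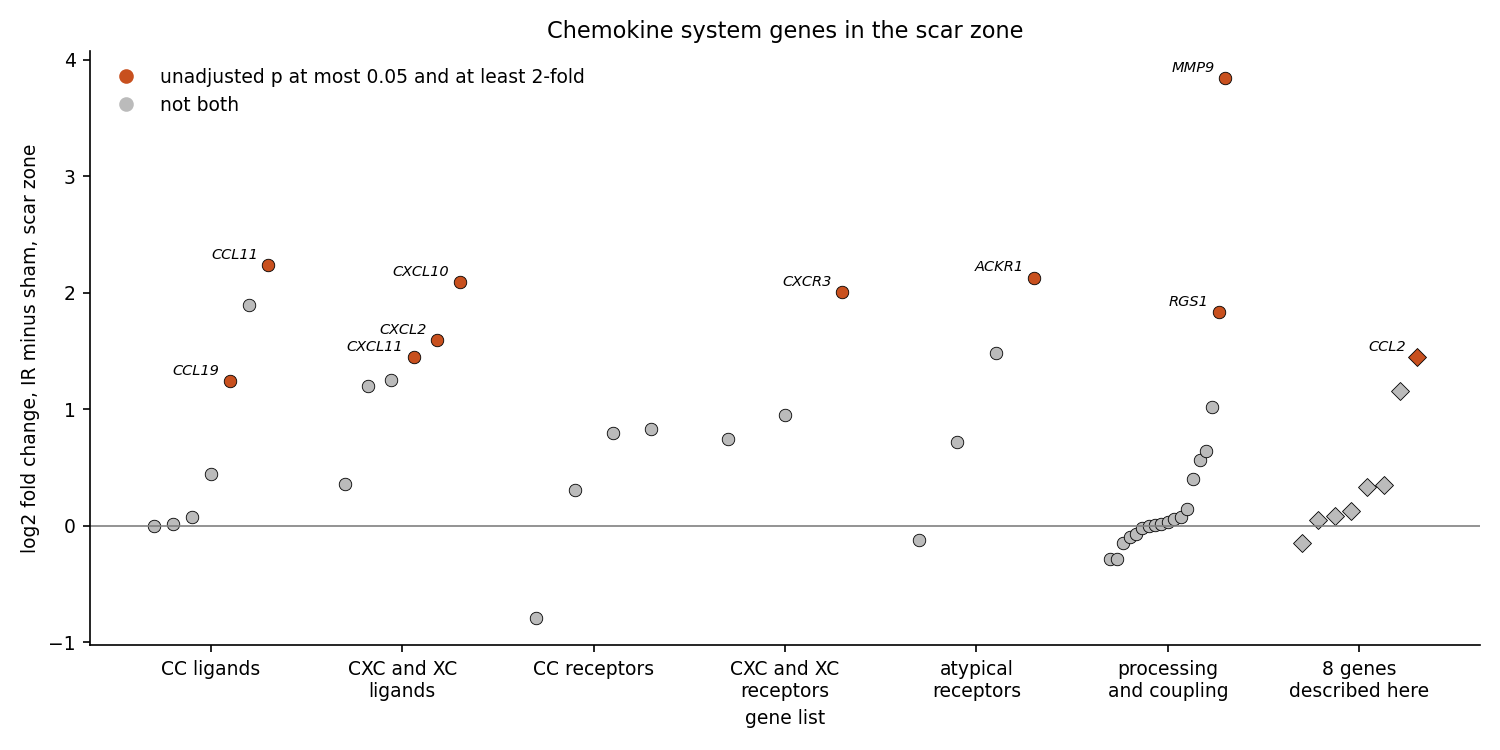
Log2 fold change of IR over sham in the scar zone (y axis) for the 43 other chemokine system genes by list and, as diamonds, for the 8 genes described above. Red points have an unadjusted p of at most 0.05 and a fold of at least 2, which 9 of the 43 genes and CCL2 meet.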

How the data were processed

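Polyadenylated RNA of 16 left ventricular samples from 8 pigs was sequenced by the authors in stranded paired-end libraries. Per the submitters' processing notes, Trimmomatic 0.33, HISAT2 2.0.5 and kallisto 0.43.1 were used. The genome build is not given in the sources used here. The authors deposited estimated counts (kallisto's division of reads among transcripts, summed per gene and not scaled for depth) and TPM for 22629 genes. Groups, sex and pig were read from the labels. Estimated counts were rounded and tested in R 4.3.3 with edgeR 4.0.16 (TMM scaling, filterByExpr with a minimum count of 10 and a minimum total of 15, quasi-likelihood test, Benjamini-Hochberg adjustment over all genes tested, p at most 0.05 and fold of at least 2). CPM is TMM-scaled, with a prior count of 2 for its log2. Standard errors are the log2 fold change over the square root of the F statistic. The study used RUVSeq but its factors and control genes are not given in the sources used here, so none entered the fit. Exact permutation tests were two-sided over pigs. Replicates were separate pigs.

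Alternatives were DESeq2 1.42.0, upper-quartile scaling, no filter, limma 3.58.1 on log2(TPM + 1) and log2(TPM + 0.1) (genes reaching 1 TPM in 4 or more samples, or unfiltered), sex as a covariate, 1 factor of unwanted variation from 5000 control genes, a single fit of 16 samples, the pig as a replicate block, and leaving out each pig. The scar and border samples of a number come from the same animal, and their deviations from group means correlated at 0.354 to 0.692 in the 8 pigs. No 2 samples held identical values. The edgeR, DESeq2 and limma tests of IR against sham were checked on data simulated from the scar zone samples. That simulation had planted changes and the same relative spread for every gene. The zone, sex, replicate block and permutation tests were not checked in this way.

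All 9 members were named, with other chemokine system genes past the unadjusted rule in either zone, examples of high TPM, and the 3 genes of highest Pearson r per member among those with a mean TPM of at least 1. Members and lists were chosen with earlier results of these data known. Gene symbols are those of the deposited data, and 889 of 7534 lines given by Ensembl ID took a symbol from the Sscrofa11.1 RefSeq gene table. Results of some genes are not reported here.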

Additional observations from a re-analysis of the deposited data

Results flagged for a closer look

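In 32 groups of 4 libraries (8 genes in 4 groups), 3 held a library set apart from the other 3 by a gap test, against about 1 in 20 by chance. CXCL12 in the sham border zone stood at 30.9 CPM in pig 13, above 21.5 to 22.3 CPM in the other sham pigs. CCR1 in the sham border zone stood at 1.18 CPM in pig 5, below 2.04 to 2.28 CPM in the others. CXCR4 in the sham scar zone stood at 14.1 CPM in pig 4, above 11.5 to 11.8 CPM in the others. None of the 3 lies in the IR groups.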

How the results depend on the processing

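In the scar zone the log2 fold changes of CCL2 and CCR1 were positive under every alternative run, from 0.63 to 1.73 and from 0.38 to 1.45 with 1 pig left out. The count of members past the unadjusted rule there, 1 as reported, was 0 with limma on log2(TPM + 1) with no filter and 2 in the single fit of 16 samples. It ranged from 0 (without pig 5, 11 or 12) to 2 (without pig 2, 4 or 14). The count of 9 other chemokine system genes became 13 with edgeR and no filter on low counts, 5 with either filtered limma setting and 3 with unfiltered limma. It was 3 (without pig 11) to 14 (without pig 2) with 1 pig left out. ACKR1, CCL11, CXCL11 and MMP9 were not tested in the filtered limma fits. These counts need not hold the same genes from one setting to the next. Calls over all genes moved too, from 384 higher and 86 lower as reported to 647 and 231 with no filter and 90 and 35 with unfiltered limma. With 1 pig left out they were 214 (without pig 11) to 686 (without pig 14) higher and 64 (without pig 5) to 165 (without pig 2) lower. The border zone count of 2 became 0 with each limma setting (ACKR4 was not tested in the filtered fits), 1 in the single fit, and 0 (without pig 11) to 3 (without pig 12). Across zones in IR pigs the members' count was 0 to 1, with CXCL12 past the rule without pig 14. The sex dependence in the scar zone went from 0 to 1 member (CCL2) with DESeq2 and with limma on log2(TPM + 1). With 1 pig left out, an alternative chosen after seeing the data that assumes the lone pig of a surgery and sex to vary like the others, it was 0 in all 8 fits, and 0 to 3 members passed the unadjusted rule, where 652 to 1005 of all genes were higher and 352 to 475 lower.

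Some differences changed sign. In the scar zone CXCR4 was 0.011 with limma on log2(TPM + 1), filtered or not, and 0.013 on log2(TPM + 0.1), and ACKR3 was 0.031 and 0.030. With 1 pig left out, scar zone values ranged from -0.22 to 1.04 for CCL5, -0.15 to 0.20 for CX3CL1, -0.13 to 0.38 for CCR2 and -0.62 to 4.25 for MMP9. Border zone values ranged from -0.55 to 1.11 for CCL5, -0.015 to 0.28 for CX3CL1, -0.054 to 0.24 for CCR1, -0.19 to 0.21 for CCR2 and -0.12 to 0.37 for CX3CR1. The zone dependence of CCL5 was 0.084 with the replicate block, 0.23 and 0.26 with limma on log2(TPM + 1) and log2(TPM + 0.1), and -0.51 to 0.39 with 1 pig left out. For CX3CL1 it was 0.047 and 0.057 with limma and -0.30 to 0.15, and for CCR2 -0.0045 to 0.18. Scar against border zone in IR pigs gave -0.70 to 0.21 for CCL5, 0.059 and 0.066 (limma) and -0.29 to 0.18 for CX3CL1, and -0.0078 (DESeq2) and -0.077 to 0.10 for CX3CR1. The border zone sex dependence with 1 pig left out was -0.040 to 1.42 for CCL2 and -0.61 to 0.18 for CCR1. The causes were not tested.

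Over all genes the adjusted rule in the scar zone called 0 with edgeR, 37 higher and 15 lower with DESeq2, and 2 higher and 1 lower with limma on log2(TPM + 1). The median gene of the scar zone was at 0.03 with edgeR, 0.15 and 0.17 with limma on filtered TPM and 0.10 on unfiltered TPM. The replicate block changed no member's call. CCR1 did not pass the limma filter in the border zone or in IR pigs across zones. With 4 pigs a group and 22 to 68 counts of CCR1 in 6 of 8 scar libraries, the 95% interval of its scar zone log2 fold change ran from -0.17 to 2.48.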
